A study of Mus musculus with 15 samples.

Results

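Matrix metalloproteases and their tissue inhibitors (TIMPs) were followed as a set of 10 genes, Mmp2, Mmp3, Mmp9, Mmp10, Mmp13, Mmp14, Mmp19, Timp1, Timp2 and Timp3, named as a group and matched by mouse symbol to the Entrez identifiers of the counted genes. All 10 were found among 27179 identifiers, and 9 passed the filter on low counts. Total RNA had been sequenced from 5 populations of the mouse mammary carcinoma line 4T1, each with 3 biological replicates. The parental population is labelled WT. Populations E1, E2, A and M are labelled as expressing iRFP670, a near-infrared fluorescent protein. Each of them was grown from a single cell of the parental population after transfection with the plasmid pNLS-iRFP670. Medium with G418 served for routine culture of these 4 populations, and the antibiotic was left out before RNA collection. RNA was collected after 72 h at about 80% confluency. Each clonal population stands for 1 founder cell, so that a property of the founder, the transfection, the selection and the single-cell isolation cannot be told apart in any of them.

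Matrix metalloproteases (MMPs) are zinc endopeptidases that are made as proenzymes, in which a cysteine of the prodomain blocks the catalytic zinc until the prodomain is removed. Most are secreted, and a membrane-type subgroup is anchored at the cell surface. Together they cleave collagens, other matrix proteins, cytokines and cell surface proteins, and in breast cancer they are known for their part in invasion and matrix turnover. TIMPs bind the active site of the enzymes and block it. Transcript levels measure neither secretion nor activation of these proteins.

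The libraries held 20143111 to 36831801 counts. A single identifier without a name in the reference tables took 36.8% to 49.3% of them, and 6164768 to 14206491 counts lay outside the 6 most counted genes. Levels are given as CPM, counts per 1000000 of the library total after TMM scaling, a correction for composition. Among genes with 1 to 20 counts in a library, 59.7% to 73.6% of the counts were even numbers, so that small counts cannot be read as independent molecules. The labels call the replicates biological without saying whether they came from separate cultures, so p-values measure the spread between these libraries, which may be technical. The 10 epithelial markers, with Epcam, Krt8 and Cdh1 among them, were all counted in every population. Defining leukocyte genes (Adgre1, Itgam and Cd3e) and fibroblast genes (Lum, Dcn and Thy1) had 0 counts in all 15 libraries. Other markers of these lists were counted, among them Cd68 with 244 counts, Csf1r with 46 and Fap with 42 over all libraries, and Pdgfra, which was higher in A. The summed level of the epithelial markers was 379 to 427 CPM in the parental libraries, 741 to 888 CPM in A and 605 to 813 CPM in the other clones. In A, 5 of the 10 were called higher than in the parental cells and 2 lower, Cdh1 (log2 fold change -1.60, adjusted p = 9e-07) and Krt14 (-2.27, adjusted p = 0.0126). Of all tested genes, 15.1% were called higher in A and 14.9% lower. E1, E2 and M each had 7 of the 10 called higher, where 7.77%, 9.14% and 7.87% of all genes were. Cdh1 was also called lower in M (-0.91, edgeR adjusted p = 0.00225). The part of these markers in the values below was not tested.

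The genes Mmp13, Mmp3 and Mmp10 lie in this order in a cluster of 10 MMP genes on chromosome 9 that spans 427 kb (GRCm38), and each had its highest mean in A, although Mmp13 was not called there against the parental cells. Their promoters are shown for that reason, beside that of Mmp14, which lies on chromosome 14 and was also higher in A. Each sequence holds the 250 bases before the annotated transcription start, from RefSeq (GRCm38.p6), on the plus strand, 5′ to 3′. Capitals mark the letters TGAGTCA or TGACTCA, the core to which AP-1, the dimer of Fos and Jun proteins, is known to bind. The windows are chr9:7272264-7272513 for Mmp13, chr9:7445572-7445821 for Mmp3, chr9:7502092-7502341 for Mmp10 and chr14:54431348-54431597 for Mmp14.
Mmp13: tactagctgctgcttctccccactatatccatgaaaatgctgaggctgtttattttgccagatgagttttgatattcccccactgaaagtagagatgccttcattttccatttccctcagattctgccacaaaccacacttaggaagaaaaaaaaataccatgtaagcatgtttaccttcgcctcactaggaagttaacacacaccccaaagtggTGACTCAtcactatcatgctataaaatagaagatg
Mmp3: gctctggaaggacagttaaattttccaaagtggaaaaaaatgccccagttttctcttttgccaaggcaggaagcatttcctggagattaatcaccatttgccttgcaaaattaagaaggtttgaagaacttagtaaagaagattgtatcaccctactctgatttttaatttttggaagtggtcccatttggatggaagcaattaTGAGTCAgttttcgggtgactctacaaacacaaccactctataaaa
Mmp10: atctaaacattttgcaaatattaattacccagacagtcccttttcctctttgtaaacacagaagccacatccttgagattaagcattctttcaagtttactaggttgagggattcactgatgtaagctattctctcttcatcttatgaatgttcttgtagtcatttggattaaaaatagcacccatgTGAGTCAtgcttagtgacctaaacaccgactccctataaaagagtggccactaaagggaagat
Mmp14: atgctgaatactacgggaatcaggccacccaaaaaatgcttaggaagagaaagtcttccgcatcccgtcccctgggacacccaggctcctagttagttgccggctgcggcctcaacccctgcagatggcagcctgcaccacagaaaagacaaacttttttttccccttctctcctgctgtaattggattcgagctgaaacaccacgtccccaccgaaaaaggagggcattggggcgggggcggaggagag
The AP-1 letters stood at positions -35 to -29 in Mmp13, -46 to -40 in Mmp3 and -63 to -57 in Mmp10, counted back from the base before the start. Of the 7 members with a promoter in the table, these 3 held the letters, and Mmp14, Timp1, Timp2 and Timp3 did not. On both strands of 32851 promoters of this length, 4.46% held them. The letters TATAAA, searched on the strand of the gene only, followed the AP-1 letters in each of the 3 at positions -16 to -11, -7 to -2 and -29 to -24, and 7.59% of promoters held these letters. The letters AGGAAG, a core of ETS factors of the PEA3 group, were found on either strand in Mmp3, Mmp13, Mmp14, Timp1 and Timp3 and in 29.5% of promoters. These matches describe the sequence of the reference, not binding in these cells.

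Population A differed most in these genes. Against the parental cells, Mmp3, Mmp10, Mmp14 and Timp2 rose in A and Mmp9 fell, 5 of the 9 tested members, where 30% of all 12712 tested genes were called, 15.1% higher and 14.9% lower (edgeR quasi-likelihood test, Benjamini-Hochberg adjusted p under 0.05). In E1 only Timp2 was called, lower, where 15.1% of all genes were called and 7.35% were lower. In E2 only Mmp14 was called, lower, where 17.9% were called and 8.8% were lower. In M none of the 9 was called by edgeR, where 14.1% of all genes were called, 7.87% higher and 6.28% lower. Against E1, 7 of the 9 were called in A (29.6% of all genes), against E2 4 (22.4%), and 3 were lower in M than in A (17.7% called and 8.55% lower). Timp2 alone was called between M and E1 (3.89%), and no member between E2 and E1 (0.236%) or between M and E2 (3.5%). The replicates did not overlap with the parental ones for 3 members in E1 (33.4% of all genes), 3 in E2 (32.6%), 6 in A (44.6%) and 0 in M (29.3%). Of 90 tests of a member in a pair, 22 were called, and 19 of these involved A. Over all genes the pairs with A also held many of the calls. In those pairs 17.7% to 30% of all genes were called, and 0.236% to 17.9% in the pairs without A. A difference among the 5 populations as a whole was called for Mmp3, Mmp9, Mmp10, Mmp14, Mmp19 and Timp2, 6 of 9, where 40.9% of all genes were called. The median log2 fold change of the 9 in A was 1.35, that of all tested genes 0.03. The 1.35 is the value of Mmp2, a gene close to the detection limit that was not called (adjusted p = 0.371). Mmp2 reached the minimum of 0.336 CPM in the 3 libraries needed only through A and M, so these counts and medians describe the members and are no independent sign of a difference. The comparisons with the parental population share its 3 libraries.

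**Figure D1:**
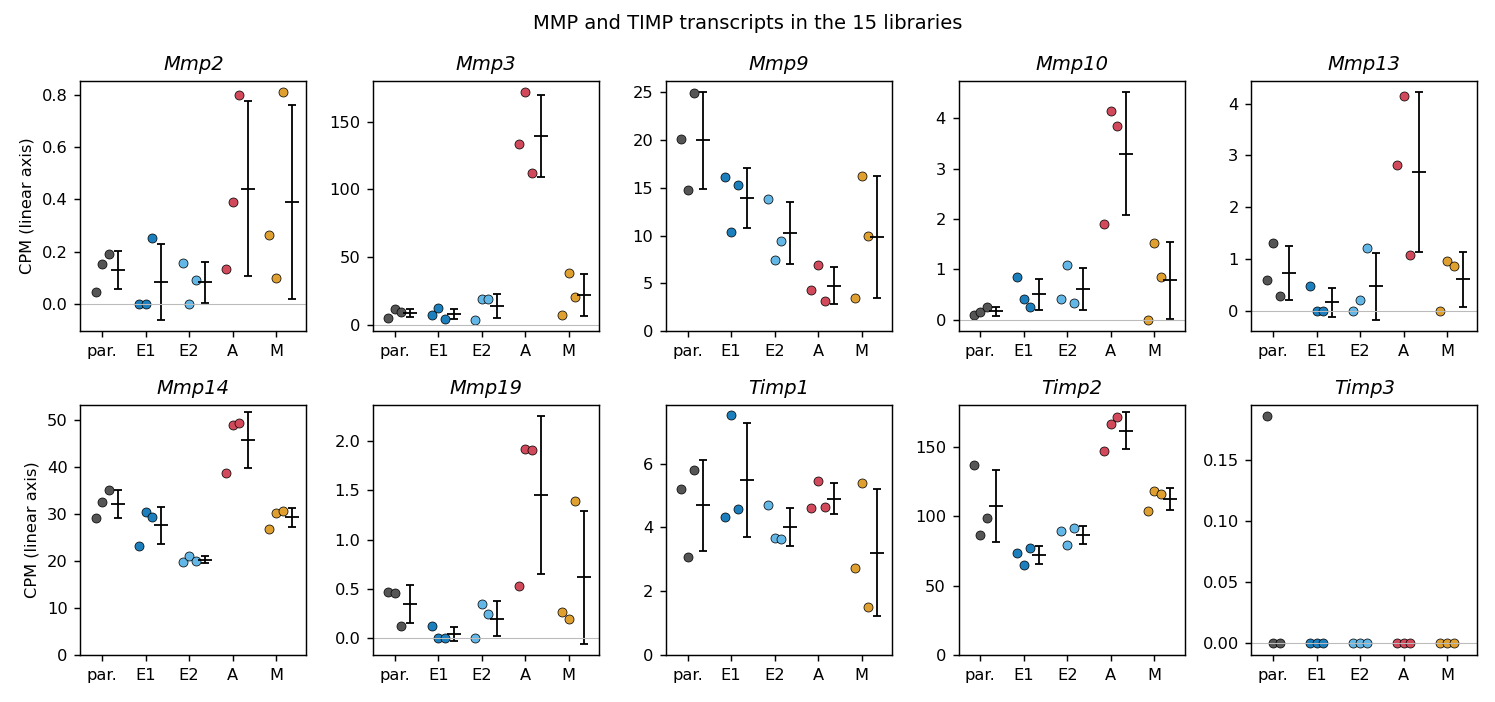
CPM of the 10 genes (linear axis) in the 3 libraries of each population; points are libraries and the bars beside them the mean and SD, not drawn for Timp3. The 3 libraries of A lie above all others for Mmp3, at 112 to 172 CPM, and for Mmp14 and Timp2.

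**Figure D2:**
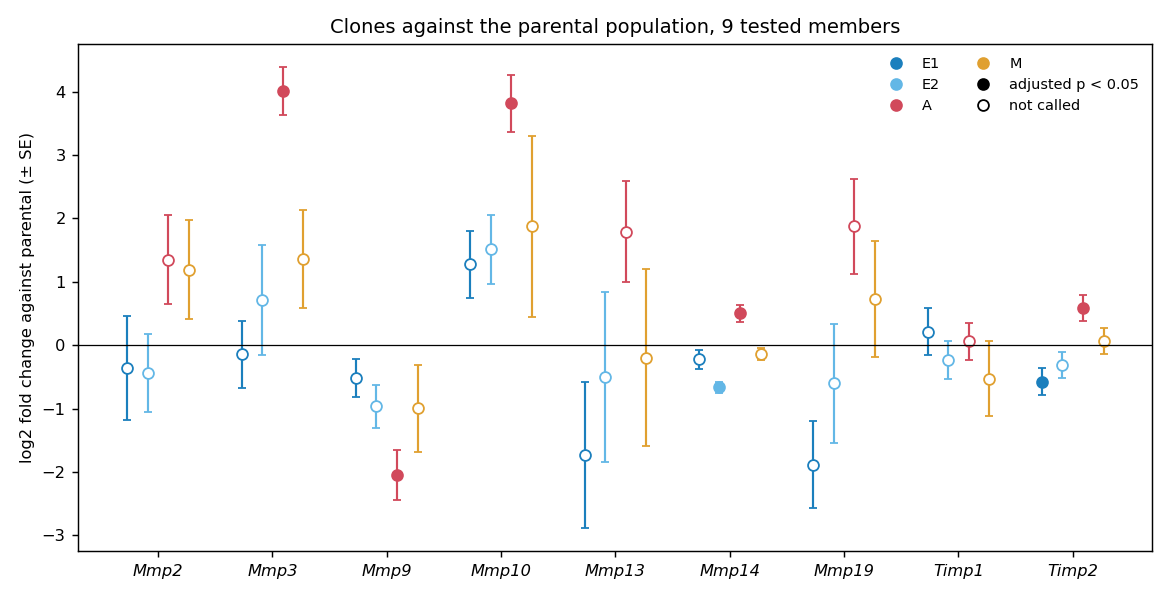
Log2 fold change (± SE) of the 9 tested genes in each clone against the parental population, filled where called. A stands at 4.01 for Mmp3, 3.81 for Mmp10 and -2.05 for Mmp9, while M has no filled point.

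The stromelysins, Mmp3 and Mmp10, cleave proteoglycans, laminin and fibronectin and can remove the prodomain of other MMPs. Mmp3 (identifier 17392, chromosome 9, 7445822 to 7455975, plus strand) stood at 134, 172 and 112 CPM in A, beside 5.20, 11.3 and 9.04 CPM in parental cells. The other clones gave 6.87, 12.1 and 4.51 CPM (E1), 3.54, 19.0 and 19.1 CPM (E2), and 7.10, 38.4 and 20.2 CPM (M). The 3 libraries of A were above all 12 others, and the other 4 populations overlapped one another. Mmp3 was thus at 139 CPM ± 30.3 (SD, n = 3) in A and at 8.51 CPM ± 3.08 in the parental cells, a log2 fold change of 4.01 (SE 0.375, adjusted p = 0.00214). It was also higher in A than in E1 by 4.16 (SE 0.446, adjusted p = 0.00189) and than in E2 by 3.30 (SE 0.822, adjusted p = 0.00776).

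The level of Mmp3 in M, 21.9 CPM ± 15.7, was below that in A, with a log2 fold change of -2.65 (SE 0.729, adjusted p = 0.0244). Leaving out A replicate 1 or 2 or M replicate 1 or 3 ended this call, as did fitting M and A alone, with adjusted p up to 0.0853. M replicate 2 held 5.41 times the CPM of M replicate 1, and the libraries of E2 spread about as widely. Against the parental cells, M stood at 1.36 (SE 0.779, adjusted p = 0.235) and E2 at 0.71 (adjusted p = 0.547), both not called. With no filter on low counts both were called (adjusted p = 2.42e-11 and 0.00226), and with no other alternative.

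Mmp10 (identifier 17384, chromosome 9, 7502342 to 7510242, plus strand) was a low transcript. A held 1.89, 4.14 and 3.84 CPM, and the parental population 0.0929, 0.153 and 0.252 CPM. Values for the other clones were 0.847, 0.418 and 0.252 CPM (E1), 0.416, 1.08 and 0.334 CPM (E2), and 0, 1.52 and 0.842 CPM (M). A did not overlap with any other population, and the parental libraries, with 14 counts in all, were the lowest of the populations by mean. Against the parental cells the log2 fold change in A was 3.81 (SE 0.452, adjusted p = 0.000753), which was called in all 23 alternatives. In A it was higher than in E1 by 2.54 (adjusted p = 0.0132) and than in E2 by 2.30 (adjusted p = 0.0302). The first call was lost without E1 replicate 2 or 3 or A replicate 2 (up to 0.066), and the second without E2 replicate 1 or 3, A replicate 2 or 3, or the 2 libraries richest in the top identifier (up to 0.118). E1, E2 and M had log2 fold changes of 1.27, 1.51 and 1.87 against the parental cells, none called (adjusted p = 0.261, 0.165 and 0.0928). Without M replicate 1, the library with 0 counts, the value in M was called, as it was with no filter (lowest adjusted p 0.0118).

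Mmp13, a collagenase that cleaves fibrillar collagen (identifier 17386, chromosome 9, 7272514 to 7283333, plus strand), is the third of the 10 followed genes that lies in the cluster. Of the genes of the cluster 4 were tested, Mmp1b being the other. Its values were 2.82, 4.14 and 1.08 CPM in A, and 0.604, 1.30 and 0.283 CPM in parental cells. E1 had 0.484 CPM in replicate 1 and 0 in the other libraries, E2 had 0, 0.209 and 1.22 CPM, and M had 0, 0.956 and 0.874 CPM. A overlapped with the parental population and with E2 but not with E1 or M. The log2 fold change of A against E1 was 3.52 (SE 1.15, adjusted p = 0.0439), a call that 12 of 22 alternatives ended (up to 0.132), with DESeq2 among them. It was lost without any 1 library of A or of the parental cells, and without E1 replicate 2 or 3, E2 replicate 2 or M replicate 3. Against the parental cells A stood at 1.79 (SE 0.795, adjusted p = 0.284) and was not called. With no filter on low counts, or with only these populations in the fit, it was called (lowest adjusted p 0.0173).

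Gelatinases cleave denatured collagen and the type IV collagen of basement membranes. Mmp9 (identifier 17395, chromosome 2, 164940326 to 164955850, plus strand) was the called member that was lower in A. The parental libraries held 20.1, 14.7 and 24.9 CPM and those of A 4.28, 6.91 and 3.14 CPM. E1 stood at 16.1, 10.4 and 15.3 CPM, E2 at 13.8, 7.47 and 9.48 CPM, and M at 3.48, 16.2 and 9.91 CPM. A lay below the parental cells, E1 and E2 in every library, whereas M spanned the range from A to the parental level. The log2 fold change of A was -2.05 (SE 0.394, adjusted p = 0.00302) against the parental cells and -1.54 (SE 0.383, adjusted p = 0.0173) against E1. The first was called in all 23 alternatives. The second was not called without E1 replicate 1 or 3 or A replicate 1 or 3 (up to 0.0736). E2 and M stood at log2 fold changes of -0.96 and -0.997 against the parental cells and were not called (adjusted p = 0.146 and 0.144). Of 23 alternatives, 3 called the value in E2 and 2 that in M (lowest adjusted p 0.000357 and 0.000325, with no filter). A against E2, at -1.08, was not called (adjusted p = 0.1), but 4 alternatives called it. The test among all populations called Mmp9 (adjusted p = 0.0197), and no longer did so when replicate 1 or 3 of the parental cells or of A was dropped (up to 0.0789). E2 did not overlap with the parental libraries in Mmp9, as did not 32.6% of all genes.

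Mmp2, the other gelatinase, whose proenzyme is known to be activated by Mmp14 at the cell surface with Timp2 as an adaptor, was close to the detection limit. It had 102 counts in all 15 libraries together (identifier 17390, chromosome 8, 92827290 to 92853421, plus strand). Means ranged from 0.0824 CPM ± 0.0784 in E2 to 0.441 CPM ± 0.336 in A, and no pair of populations was called. The highest libraries were M replicate 3 with 0.809 CPM and A replicate 3 with 0.799 CPM, and 3 libraries of E1 and E2 had 0 counts. Without E1 replicate 3, the library of E1 that held counts, A against E1 was called, at a log2 fold change of 2.88 (adjusted p = 0.0477) beside 1.71 with it (adjusted p = 0.234). The lack of a call does not show that the levels are alike.

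Mmp14 is a membrane-type metalloprotease, a surface collagenase and the activator of pro-Mmp2 (identifier 17387, chromosome 14, 54431598 to 54442456, plus strand). Its libraries stood close together: 29.2, 32.6 and 35.1 CPM in the parental cells, 19.8, 21.1 and 20.03 CPM in E2, and 38.9, 49.0 and 49.4 CPM in A. E1 had 23.2, 30.4 and 29.4 CPM and M had 26.9, 30.4 and 30.7 CPM. A was above and E2 below every library of the other populations, while the parental cells, E1 and M overlapped. The order of the means was A, parental, M, E1 and E2, and the neighbours in the middle of this order, parental and M or M and E1, were not called. Against the parental cells Mmp14 fell in E2 by 0.67 (log2 scale, SE 0.0824, adjusted p = 0.0038) and rose in A by 0.50 (SE 0.137, adjusted p = 0.0146), a 1.42-fold difference. That call in A was lost when parental replicate 1, A replicate 2 or A replicate 3 was dropped (up to 0.0918), and also when the 2 libraries richest in the top identifier were dropped. Mmp14 was higher in A than in E2 by 1.17 (SE 0.117, adjusted p = 4.79e-06), than in E1 by 0.73 (adjusted p = 0.000772), and lower in M than in A (log2 fold change -0.64, adjusted p = 0.00459). M stood 0.53 above E2 on the log2 scale with replicates that did not overlap (adjusted p = 0.0579), and this was called in 6 of 23 alternatives.

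Mmp19, a secreted MMP that belongs to neither the collagenases nor the gelatinases (identifier 58223, chromosome 10, 128790910 to 128800827, plus strand), was low as well. A held 0.531, 1.92 and 1.91 CPM, M held 0.264, 0.196 and 1.39 CPM, and the parental population 0.464, 0.459 and 0.126 CPM. E1 had 4 counts in 1 library and 0 in the others, and E2 had 0, 0.349 and 0.243 CPM. A against E1 was called, with a log2 fold change of 3.76 (SE 0.753, adjusted p = 0.00392), while A against the parental cells was not, at 1.88 (SE 0.750, adjusted p = 0.139), although their libraries did not overlap. Fitting A and the parental cells alone gave a call (adjusted p = 0.044). The difference of Mmp19 among all populations (adjusted p = 0.0144) was lost without A replicate 2 or 3 (up to 0.0683). Exons of Tmem198b on the other strand cover 22.3% of the exon bases of Mmp19, and the strand setting of the counting is not given in the sources used here. The mean of Tmem198b was highest in A (2.88 CPM ± 0.971) and lowest in E1 (1.17 CPM ± 0.570), and its part in the values of Mmp19 was not tested.

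Timp2, which inhibits secreted and membrane-type MMPs, was counted in every library (identifier 21858, chromosome 11, 118301061 to 118355411, minus strand). The parental libraries held 137, 86.7 and 98.4 CPM, those of E1 73.6, 65.001 and 77.3 CPM, and those of A 147, 167 and 172 CPM. E2 had 89.3, 79.1 and 91.4 CPM and M had 104, 118 and 116 CPM. A lay above all other libraries, E1 below all others, and parental replicate 1 stood apart from the other parental libraries. Timp2 fell in E1 by 0.58 (log2 scale, SE 0.210, adjusted p = 0.0108) and rose in A by 0.59 (SE 0.208, adjusted p = 0.0038). Dropping parental replicate 1, E1 replicate 2 or the 2 libraries richest in the top identifier ended the call in E1 (up to 0.0979), and that in A was called in all 23 alternatives. Between clones, A was above E1 by 1.17 (SE 0.102, adjusted p = 1.72e-06) and above E2 by 0.90 (SE 0.0948, adjusted p = 9.99e-05). M was above E1 by 0.64 (SE 0.0949, adjusted p = 0.0135), lost without E1 replicate 2 or M replicate 3 (up to 0.104), and below A (log2 fold change -0.52, adjusted p = 0.0165), lost without A replicate 2 or 3 or M replicate 1 (up to 0.0779).

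Timp1, the inhibitor that binds pro-Mmp9 (identifier 21857, chromosome X, 20870166 to 20874737, plus strand), was called in no pair. Its mean was 4.69 CPM ± 1.44 in the parental cells and 4.90 CPM ± 0.472 in A, within a range of means from 3.20 CPM ± 1.99 (M) to 5.48 CPM ± 1.78 (E1). M held 2.73, 5.39 and 1.49 CPM, and without M replicate 2 it was called lower in M than in the parental cells, E1 and A (adjusted p = 0.0434, 0.0268 and 0.0257). The log2 fold change of A against the parental cells was 0.06 with an SE of 0.290 (adjusted p = 0.92). Timp1 lies within the gene Syn1 on the other strand, with which it shares 0 exon bases. Timp3, a matrix-bound inhibitor (identifier 21859, chromosome 10, 86300412 to 86349505, plus strand), had 4 counts in parental replicate 1 and 0 in the 14 other libraries. In a clonal population, 0 counts allow a level of up to 0.0318 to 0.0371 CPM (3 counts over its 3 libraries, counting error only). Exons of Syn3 on the other strand cover 21.3% of its exon bases. No difference in Timp3 was detectable at this depth.

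Levels of different genes can be compared per exon length only. In CPM per kilobase of exon, the parental cells had overlapping levels of Mmp9 (5.63 ± 1.44), Mmp14 (5.41 ± 0.499), Timp1 (5.28 ± 1.62) and Mmp3 (4.72 ± 1.71), while Timp2 stood higher at 27.6 ± 6.75. In A, Mmp3 reached 77.2 ± 16.8, above Timp2 at 41.5 ± 3.40 and Mmp14 at 7.68 ± 1.00. The exon length matters for Mmp14, which stood at 14.1 in A and 9.97 in the parental cells when the length of its longest transcript was used. Of the summed per-kilobase level of all MMP genes, Mmp3 made up 79.9% to 85.8% in the libraries of A and 19.3% to 34.5% in the parental libraries. Its share was 19.1% to 42.0% in E1, 17.8% to 58.0% in E2 and 37.2% to 62.6% in M, so that each of these overlapped at least 1 other population and A overlapped none. The share of Mmp9 was 22.9% to 38.1% in the parental cells and 1.14% to 1.74% in A, and shares of 1 sum are not independent of each other.

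**Figure D3:**
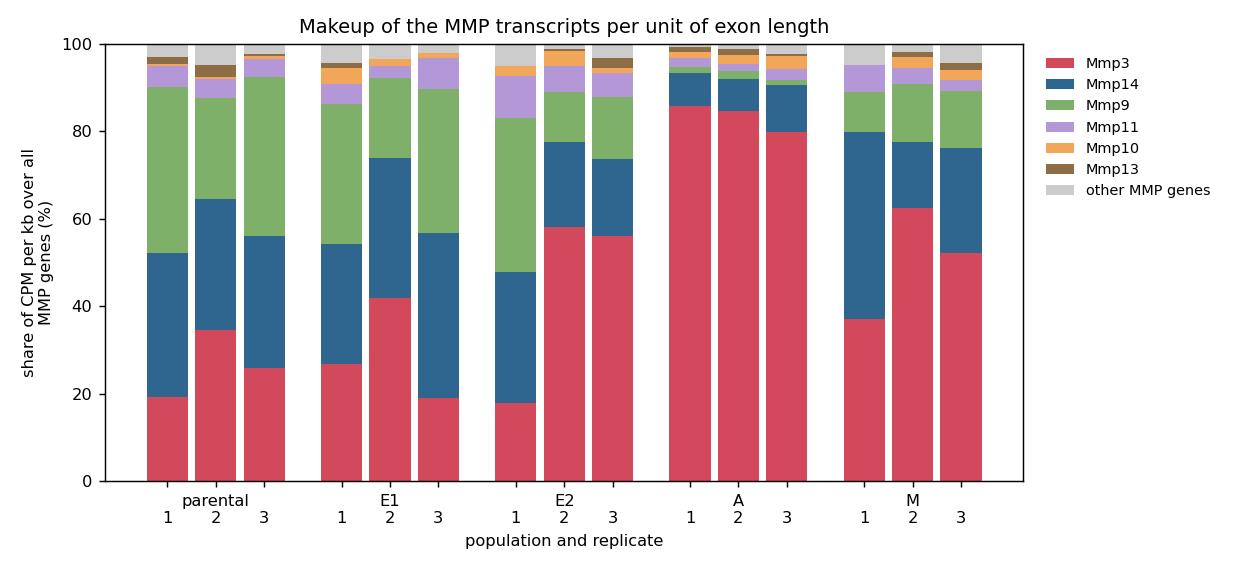
Share (%) of each MMP gene in the summed CPM per kilobase of all MMP genes, 1 bar per library. Mmp3 takes 79.9% to 85.8% in A, and no more than 62.6% in any other library.

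The ratio of enzyme to inhibitor, both per kilobase, was 13.9 ± 1.87 (SD, n = 3) for Mmp3 to Timp1 in A and 1.03 ± 0.699 in the parental cells. For the other clones it was 0.687 ± 0.174 (E1), 1.84 ± 1.27 (E2) and 3.82 ± 2.71 (M), and the 3 libraries of A, 11.9 to 15.5, were above all others. Mmp9 to Timp1 was 0.240 ± 0.0748 in A and 1.09 ± 0.118 in the parental cells, with 0.707 ± 0.317 (E1), 0.634 ± 0.115 (E2) and 0.914 ± 0.689 (M), where the libraries of M ranged from 0.320 to 1.67. Mmp14 to Timp2 was 0.184 ± 0.0101 in A and 0.206 ± 0.0581 in the parental cells, and the libraries of these populations overlapped. These ratios are descriptions of transcripts and were not tested.

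Within the cluster on chromosome 9, the other genes were scarcely counted. Mmp8 had 0 counts in all libraries, Mmp1a, Mmp12, Mmp20, Mmp27 and Mmp7 had 1 to 6 counts in all, and Mmp1b had 6 to 29 counts per population with no call against the parental cells. The nearest counted gene before Mmp13, Dcun1d5, had a log2 fold change of 0.03 in A (adjusted p = 0.914), and Dync2h1 before it rose by 1.16 (adjusted p = 3.71e-05). Casp12, which lies 1899 kb before Mmp13, rose by 1.4996 (adjusted p = 0.0344). After Mmp10, Tmem123 fell by 0.44 (adjusted p = 0.0328) and Birc2 rose by 0.67 (adjusted p = 0.0123), while Birc3 stood at -0.45 (adjusted p = 0.161). Tmem123 was called lower in E1 (-0.68, adjusted p = 0.00413), E2 (-0.53, adjusted p = 0.019) and M (-0.48, adjusted p = 0.0385) as well. The changes of these neighbours in A had both signs and were smaller than those of Mmp3 and Mmp10. Over the 49 genes that neighbour any member, up to 3 on each side, 6 rose and 3 fell in A, with a median log2 fold change of 0.11, where 15.1% of all genes were higher and 14.9% lower. Next to Mmp14, Prmt5 fell by 1.49 (adjusted p = 9.85e-07) and Rem2 rose by 1.96 (adjusted p = 0.000397), and next to Timp2, Usp36 fell by 2.17 (adjusted p = 1.2e-08). In E2, where Mmp14 fell, 4 of its 6 neighbours were called lower as well, by more than Mmp14, beside 8.8% of all genes. These were Oxa1l (log2 fold change -0.97, adjusted p = 0.00116), Mrpl52 (-1.32, adjusted p = 0.0435), Lrp10 (-1.05, adjusted p = 0.00076) and Prmt5 (-1.18, adjusted p = 7.57e-05). Prmt5 was also lower in E1 (-0.59, adjusted p = 0.0288) and in M (-0.85, adjusted p = 0.00243). Oxa1l was also lower in M (-0.74, adjusted p = 0.0127). Mmp14 was not called in E1 or M.

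**Figure D4:**
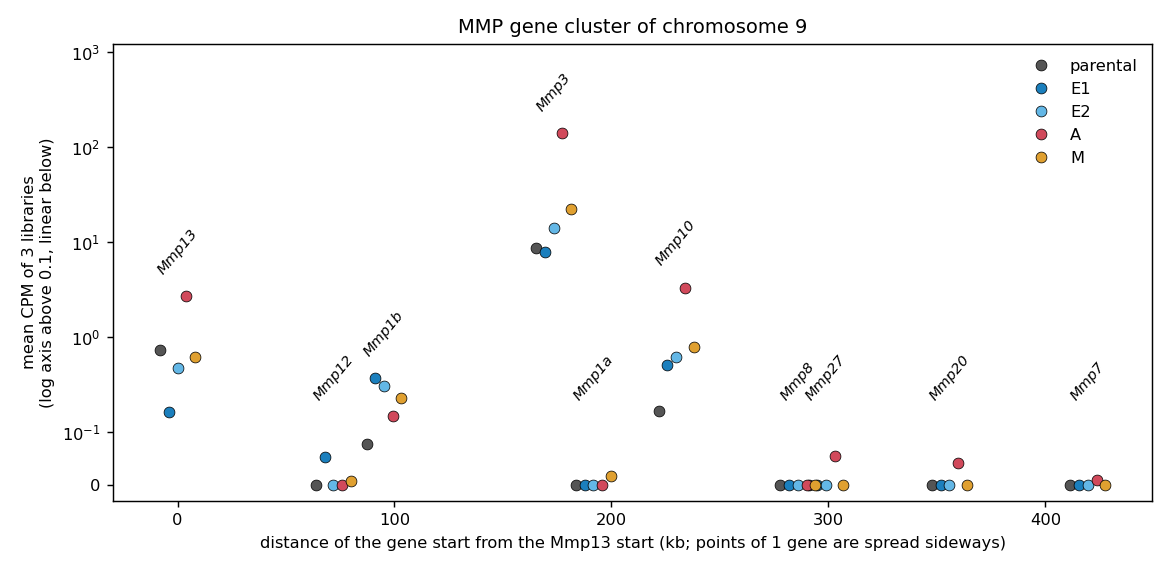
Mean CPM (log axis above 0.1, linear below) of the 10 MMP genes of chromosome 9 against the distance of their starts from the Mmp13 start (kb), coloured by population. A has the highest mean for Mmp13 (2.68 CPM), Mmp3 (139 CPM) and Mmp10 (3.29 CPM), but not for Mmp1b, which lies between them.

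Among themselves, members were related over the 15 libraries as follows, in log2 CPM, where libraries of 1 population share their source and the values describe the data with no test. Mmp3 had a Pearson r of 0.81 with Mmp10 and 0.75 with Mmp13, and -0.60 with Mmp9. Timp2 had 0.79 with Mmp19, 0.71 with Mmp3 and 0.70 with Mmp14, and Timp1 lay between -0.44 and 0.23 with all other members. The genes most like a member over these libraries were looked up next among all tested genes with a name. For Mmp3 the nearest was Etv1, an ETS transcription factor of the PEA3 group (r = 0.98), then Dlg3 (0.95). The mean of Etv1 was highest in A (51.1 CPM ± 5.77), followed by M (22.9 CPM ± 7.95), E2 (18.5 CPM ± 5.49), E1 (17.6 CPM ± 3.07) and the parental cells (15.8 CPM ± 3.75). For Mmp10 the nearest were Dab2, Ptgr1 and Mfge8 (r = 0.86 to 0.87), for Mmp9 Gar1, Pus7l and Ipo4 (0.92 to 0.93), for Mmp14 Akr1c13, Tmem9 and Ccndbp1 (0.91), and for Timp2 Flt1, Tor4a and Bcl9l (0.93 to 0.95). The highest r among 12712 genes is high in part because it was sought.

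Of 17 other genes of both families, 5 were tested, 1 was called in A and 4 had 0 counts in all libraries. Mmp11, a stromelysin-like enzyme that is activated inside the cell, had means of 2.12 CPM ± 0.104 (parental) and 5.30 CPM ± 0.312 (A). It rose in A by 1.29 on the log2 scale (SE 0.0624, adjusted p = 0.00598). It was not called in E1, E2 or M. Partners that activate, dock or clear the enzymes had 6 of 12 tested genes higher and 0 lower in A, 3 higher and 0 lower in E1, 3 and 1 in E2, and 4 and 0 in M. All tested genes were called higher at 15.1% in A, 7.77% in E1, 9.14% in E2 and 7.87% in M. The proprotein convertase gene Pcsk6 rose in A by 2.35 on the log2 scale (SE 0.301, adjusted p = 4.93e-05), to 9.53 CPM ± 1.26. Reck, a membrane-anchored inhibitor of MMPs, rose there by 1.70 (SE 0.312, adjusted p = 0.00199), to 8.45 CPM ± 2.33. In E2, Lcn2, a lipocalin that in human forms a complex with MMP9, fell by 3.23 (SE 0.801, adjusted p = 0.0146). It was a low transcript, at 1.14 CPM ± 0.526 in the parental cells and near the floor in E2 (0.0694 CPM ± 0.120). In E1 it stood at 0.164 CPM ± 0.0916 and was not called (log2 fold change -2.38, adjusted p = 0.0744).

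Transcription factors of the AP-1 and ETS families, which are known to act on MMP promoters, were listed together with the Runt family genes Runx1 and Runx2. In A, 6 of 16 rose and 2 fell, where 15.1% of all tested genes were higher and 14.9% lower. In M 4 rose and 2 fell (7.87% and 6.28% of all genes), in E1 2 rose and 0 fell (7.77% and 7.35%), and in E2 2 rose and 3 fell (9.14% and 8.8%). Runx1 is 1 of the genes that rose in A (log2 fold change 0.98, adjusted p = 5.96e-05) and in M (0.61, adjusted p = 0.0139), and Runx2 is 1 of those that rose in E2 (0.47, adjusted p = 0.0464). Fosb rose in A by 3.64 on the log2 scale (SE 0.442, adjusted p = 7.63e-09), and had means of 1.28 CPM ± 0.516 in parental cells, 16.9 CPM ± 4.82 in A and 7.30 CPM ± 1.53 in M. Atf3 fell in A by 3.26 (SE 0.231, adjusted p = 1.36e-09). Etv1 and Etv5 rose in A by 1.69 (SE 0.234, adjusted p = 2.77e-05) and 1.21 (SE 0.0537, adjusted p = 0.000243). Atf3 was also lower in E2 (-0.82, adjusted p = 0.0217) and in M (-0.99, adjusted p = 0.00726). Etv5 was also higher in M (0.995, adjusted p = 0.00415), while Etv1 was called against the parental cells in A alone. Jun, at 33.2 CPM ± 11.99 in parental cells and 33.7 CPM ± 5.19 in A, was not called there (log2 fold change 0.02, SE 0.368), and Fos was too low to be tested.

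Matrix proteins that MMPs are known to cleave had 4 of 14 tested genes higher and 1 lower in A, beside 15.1% and 14.9% of all genes. There were 1 higher and 6 lower in E1 (7.77% and 7.35% of all genes), 2 and 6 in E2 (9.14% and 8.8%), and 2 and 2 in M (7.87% and 6.28%). Spp1, osteopontin, a substrate of Mmp3, rose in A by 3.57 (SE 0.225, adjusted p = 6.25e-10), and Col4a5, a basement membrane collagen chain, by 2.19 (SE 0.366, adjusted p = 4.32e-07). Col5a1 fell in E2 by 1.73 (SE 0.199, adjusted p = 2.23e-05), where Lamb3, a laminin chain, rose by 1.29 (SE 0.0801, adjusted p = 0.000216). Neither change was limited to E2. Col5a1 was also lower in E1 (log2 fold change -1.56, adjusted p = 8.69e-05) and in M (-0.90, adjusted p = 0.0114), and was not called in A. Lamb3 was also higher in E1 (1.27, adjusted p = 0.000308) and in M (adjusted p = 0.0026), but lower in A (-0.79, adjusted p = 0.00888). The fibrillar collagen genes Col1a1, Col1a2 and Col3a1 had too few counts to be tested. Of the fibroblast markers, 1 of 8 was tested: Pdgfra rose in A by 1.88 on the log2 scale (SE 0.205, adjusted p = 4.49e-05), with means of 26.4 CPM ± 6.61 there and 7.13 CPM ± 0.333 in parental cells. The summed level of these 8 markers was 21.1 to 33.8 CPM in A and 6.97 to 7.56 CPM in the parental libraries, with 6 of 8 at 0 in A. Their part in the values of the metalloproteases was not tested. The 10 leukocyte markers summed to 0.615 to 1.10 CPM in A and 0.344 to 1.21 CPM in the parental libraries, and the 6 endothelial markers to at most 0.425 CPM in any library. Fewer cells with a transcript and less of it per cell cannot be told apart in such bulk samples.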

How the data were processed

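Raw counts per gene were deposited by the authors for 15 libraries. Per the submitters' processing notes, reads were aligned with HISAT2 and counted with featureCounts on GRCm38 (mm10). Versions and the strand setting are not given in the sources used here. Per the labels' protocols the libraries were directional. The deposited normalized and transformed tables and the authors' DESeq2 table were not used.

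The members, lists, tests and alternatives were chosen with earlier results of these data known. Identifiers were named with a RefSeq table of GRCm38.p6 (25275 of 27179) and GENCODE links (18 more). Exon lengths came from GENCODE. With R 4.3.3 and edgeR 4.0.16, filterByExpr (minimum count 10) kept 12712 genes, TMM gave factors of 0.847 to 1.11, and a robust quasi-likelihood fit with population as its only term gave all pairs. Fold changes used a prior count of 2, and standard errors came from the SD of log2 CPM. Called means a Benjamini-Hochberg adjusted p under 0.05 over all genes tested. Alternatives included DESeq2 1.42.0 and leaving out each library. From each list the text names up to 4 called genes with the largest change against the parental population, and some genes without a call or beside a result were named after their values were seen. Some genes that these rules select are not reported here.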

Additional observations from a re-analysis of the deposited data

Results flagged for a closer look

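Mmp14 and Timp2 were called in opposite directions in different clones against the same parental libraries. Mmp14 was higher in A and lower in E2, and the direct comparison of A with E2 gave a log2 fold change of 1.17 (adjusted p = 4.79e-06). Timp2 was higher in A and lower in E1, and A against E1 gave 1.17 (adjusted p = 1.72e-06). The calls of Mmp14 in A and of Timp2 in E1 against the parental cells were both lost without parental replicate 1. Both were also lost without the 2 libraries richest in the top identifier. The direct comparisons were called in all 23 alternatives.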

How the results depend on the processing

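Of 28 called results (a member in a pair, or among all 5 populations), 17 were called under every alternative and 11 were lost under at least 1, and none of the 28 changed direction. Counts of members called ranged, when 1 library was left out, from 0 to 2 for E1, 1 to 2 for E2, 4 to 5 for A and 0 to 2 for M against the parental cells. Between clones the ranges were 5 to 7 for A and 0 to 3 for M against E1, 3 to 5 for A and 0 to 1 for M against E2, and 1 to 5 for M against A, and 4 to 7 for any difference. With no filter the count against the parental cells was 6 in A, 3 in E2 and 3 in M. Between clones it was 1 for E2 against E1, 3 for M against E1, 7 for A against E2, 1 for M against E2 and 6 for M against A. The cause was not tested. Fitting only the populations compared gave 7 in A, 2 in E2 and 7 for A against E2. DESeq2 gave 2 for M against E1. For M against E2, where the main count was 0, a minimum count of 50, DESeq2, the replicate block and leaving out the 6 most counted genes each gave 1 (Mmp14). Dropping the 2 libraries richest in the top identifier left 0 in E1. Mmp3 in M against E2, not called at 0.65, ranged from -0.0187 without M replicate 2 to 1.06 without M replicate 1. Same-numbered libraries of different populations had a mean r of 0.056 between their deviations (-0.058 to 0.213 over 30 pairs). Differently numbered libraries had a mean r of -0.028 (-0.179 to 0.063 over 60 pairs). Same-numbered libraries thus deviated together slightly more, and whether they share a batch was not tested. The labels state no pairing, and the main fit holds no term for the number. With the replicate block 2 of the 28 calls were lost, Mmp13 in A against E1 and Mmp9 among all populations, and Mmp14 in M against E2 and Mmp10 in M against A were gained. Low counts limit Mmp2, Mmp10, Mmp13, Mmp19 and Timp3 most.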
